A study of Mus musculus with 4 samples.

Results

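Connective tissue, tendon and fibroblast progenitors of the limb bud are marked by a small set of regulators, and 9 of these genes were followed here in E11.5 mouse forelimb buds with and without the chromatin remodeller subunit Smarcc1. The genes were the zinc finger factors Osr1 and Osr2, the tendon genes Scx, Mkx and Tnmd, the platelet-derived growth factor (PDGF) receptors Pdgfra and Pdgfrb, and the basic helix-loop-helix (bHLH) factors Twist1 and Twist2. All 9 were found by Ensembl identifier among the 35689 genes of the deposited table, and 8 of them were among the 12809 genes that could be tested. They were chosen by name and with the knockout-against-control results of these libraries known, so their own differences between genotypes are given as a description.

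Knockout embryos were PrxCre/+;Smarcc1c/c, homozygous for a conditional Smarcc1 allele and carrying Cre under control of Prx1 sequences, which act in the mesenchyme of limb buds. Control embryos were Prx+/+;Smarcc1c/c, with the same conditional alleles and no Cre, and none of the 4 libraries came from an embryo with Cre and intact Smarcc1. Both forelimbs of a given embryo made up a library, and in each genotype replicate 1 had 40 somites and replicate 2 had 39. Values are TPM, which correct for how long a transcript is and for the total of its library, so levels can be compared between genes, but the read depth is unknown.

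Loose and muscle connective tissue, tendon and dermis of the limb arise from mesenchyme of the lateral plate. Osr1 and Osr2 mark the irregular connective tissue cells that surround and pattern muscle, Scx and Mkx drive tendon formation with Tnmd as a late tendon product, PDGF receptors carry growth signals in mesenchyme, and TWIST proteins bind E-box sequences with partner bHLH proteins and hold mesenchyme in an undifferentiated state. The SMARCC1 protein, also called BAF155, belongs to the core of the BAF or SWI/SNF complex, which moves nucleosomes and thereby alters access to promoters and enhancers.

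Smarcc1 itself fell in the knockout buds. Its level was 46.2 and 38.4 TPM in knockout buds, against 112 and 119.6 TPM in control buds. The log2 fold change was -1.44 ± 0.13 (SE, n = 2 of each genotype), with an adjusted p of 0.0117 by limma with the Benjamini-Hochberg method. The bud also holds cells outside the Cre domain, and a TPM for the whole gene can count transcript left from a recombined allele. Genes reaching 1 TPM numbered 12555 to 12577 in the knockout libraries and 12563 to 12689 in the control libraries. Transcript of Ddx3y, on the Y chromosome, was at 28.3 TPM in the knockout library and 30.2 TPM in the control library with 39 somites and at 0.0498 and 0.013 TPM in those with 40 somites, so stage and sex cannot be told apart. Limb mesenchyme markers were abundant in every library, with summed levels of 620 and 652 TPM in knockout buds and 736 and 907 TPM in control buds over 8 genes.

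The members of this set went different ways in the knockout. Osr2 and Pdgfra rose about 2.86-fold and 2.05-fold in mean TPM, and Osr1 and Twist1 were also higher in both knockout libraries than in either control without passing the threshold. Scx, Mkx and Twist2 were lower in both knockout libraries than in either control, and Pdgfrb overlapped between the genotypes. By limma with Benjamini-Hochberg adjustment over all genes at 0.05, 2 of the 8 members tested were higher and 0 lower, beside 0.812% of all genes higher and 0.492% lower. Before adjustment, 4 members were higher and 1 lower at p below 0.05, beside 6.78% of all genes higher and 6.89% lower. The libraries of the genotypes did not overlap for 7 of the 8 members, 4 higher and 3 lower, beside 43.9% of all genes tested, 22.7% higher and 21.2% lower. The median log2 fold change of the 8 members was 0.06, against 0.01 over all genes tested. In bulk tissue, fewer cells of a type and less RNA per cell cannot be told apart.

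**Figure D1:**
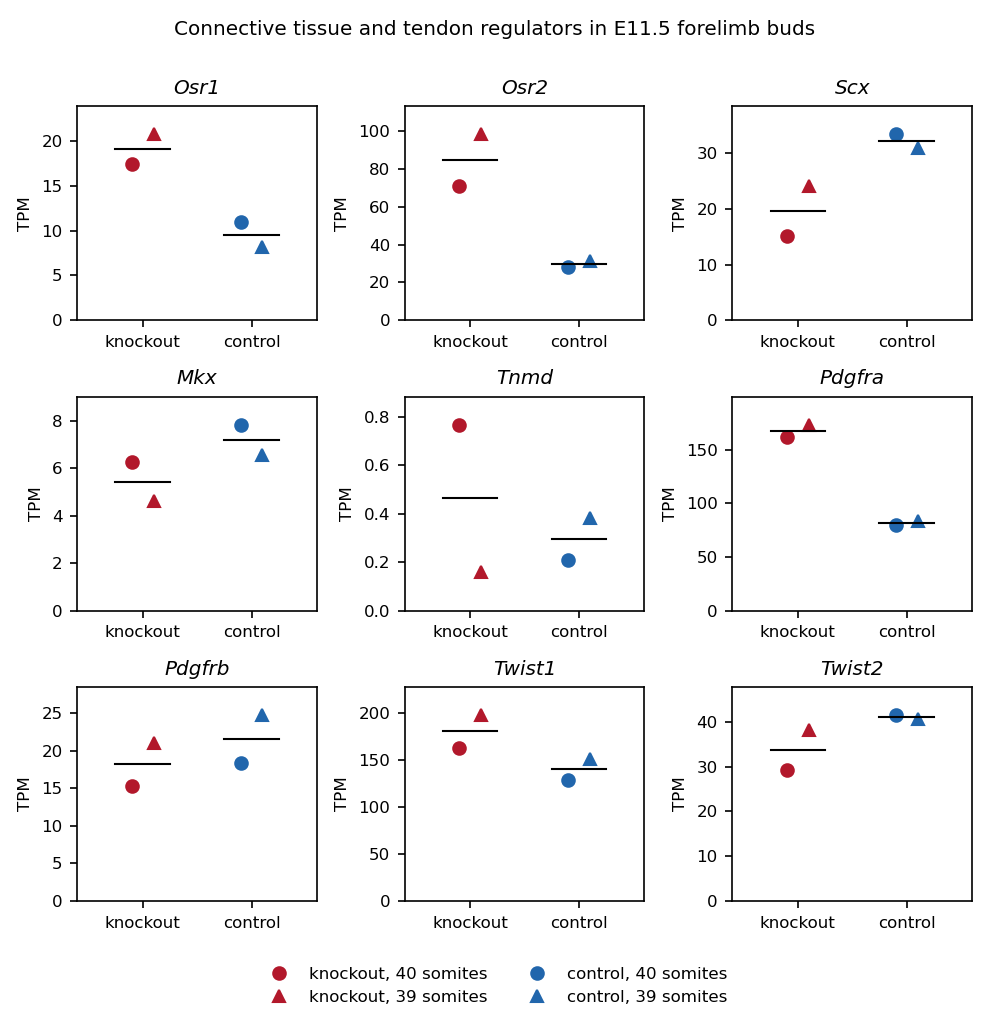
TPM of each of the 9 genes (vertical axes, each from 0) in the knockout and control libraries; circles are embryos of 40 somites, triangles embryos of 39 somites, and black lines the mean of each genotype. Osr1, Osr2, Pdgfra and Twist1 sit higher in both knockout libraries, Scx, Mkx and Twist2 lower, and Pdgfrb and Tnmd overlap.

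Osr2 encodes a zinc finger transcription factor of limb connective tissue and joint-forming mesenchyme (ENSMUSG00000022330, mm10 chromosome 15, 35296098 to 35303305, plus strand). It stood at 71.0 and 98.3 TPM in knockout buds, against 28.1 and 31.1 TPM in control buds. Both knockout libraries lay far above both controls, and the knockout with 39 somites was the higher. On the log2 scale the difference was 1.47 ± 0.17 (SE, n = 2 per genotype), with a 95% interval from 1.05 to 1.89. Among all 12809 genes tested it ranked 59 by size of rise.

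Osr1, its paralogue, is known in mouse as a marker of fibro-adipogenic and muscle connective tissue progenitors (ENSMUSG00000048387, chromosome 12, 9570116 to 9581500, plus strand). It stood at 17.4 and 20.7 TPM in knockout buds, against 10.9 and 8.18 TPM in control buds. The genotypes did not overlap. Its log2 fold change of 0.93 ± 0.17 (95% interval 0.51 to 1.36) did not pass over all genes. The difference between knockout and control, as log2(TPM + 1), was 0.63 at 40 somites and 1.24 at 39 somites. Osr1 passed without knockout replicate 1, at a log2 fold change of 1.05, and without knockout replicate 2, at 0.81, and also with a robust variance.

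Scx, or scleraxis, is a bHLH factor and the earliest known marker of tendon progenitors (ENSMUSG00000034161, chromosome 15, 76457452 to 76459458, plus strand). It stood at 15.1 and 24.2 TPM in knockout buds, against 33.4 and 31.0 TPM in control buds. Both knockout values were below both controls, but the knockout libraries differed from each other far more than the controls did. The log2 fold change was -0.72 ± 0.22, with a 95% interval from -1.24 to -0.20, and did not pass. Its size rested on the knockout embryo of 40 somites: the log2 fold change was -0.40 without that library (knockout replicate 1), and -1.04 without knockout replicate 2. All 2007 bases of Scx lie inside the body of Bop1, a ribosome biogenesis gene on the minus strand, although no annotated exons of the genes overlap; whether the quantification used strand is not stated. Bop1 stood at 40.5 and 46.3 TPM in knockout buds and 41.9 and 51.4 TPM in control buds, with a log2 fold change of -0.10 ± 0.14.

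Mkx, or mohawk, is a homeobox factor that acts after Scx in tendon maturation (ENSMUSG00000061013, chromosome 18, 6934518 to 7004780, minus strand). It stood at 6.24 and 4.63 TPM in knockout buds, against 7.83 and 6.56 TPM in control buds. The groups were just separate, with the knockout embryo of 40 somites close to the control of 39 somites. Its log2 fold change was -0.36 ± 0.18 (95% interval -0.79 to 0.08) and did not pass. Tnmd, or tenomodulin, is a membrane glycoprotein of differentiated tendon (ENSMUSG00000031250, chromosome X, 133850980 to 133865577, plus strand). It was listed at 0.767 and 0.160 TPM in knockout buds, against 0.207 and 0.382 TPM in control buds. No library reached 1 TPM, the knockout values spanned both controls, and the gene was not tested.

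Pdgfra, the receptor that marks mesenchymal progenitors and fibroblasts and binds PDGF-AA and PDGF-CC, rose (ENSMUSG00000029231, chromosome 5, 75152292 to 75198215, plus strand). It stood at 162 and 173 TPM in knockout buds, against 79.5 and 84.0 TPM in control buds. Replicates were close together within each genotype, and the groups were well apart. The log2 fold change was 1.03 ± 0.11, with a 95% interval from 0.77 to 1.28, and the difference was 1.02 at 40 somites and 1.04 at 39 somites.

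Pdgfrb, the receptor of PDGF-BB and a marker of pericytes and other perivascular mesenchyme, overlapped between the genotypes (ENSMUSG00000024620, chromosome 18, 61045150 to 61085061, plus strand). It stood at 15.4 and 21.1 TPM in knockout buds, against 18.4 and 24.8 TPM in control buds. In each genotype the embryo of 39 somites was the higher. The log2 fold change was -0.23 ± 0.20 (95% interval -0.73 to 0.26) and did not pass. Over 9 mural cell markers the summed level was 46.1 and 45.3 TPM in knockout buds and 49.4 and 49.7 TPM in control buds, 0 of 6 tested passed by limma (before adjustment, 0 were higher and 1 lower at p below 0.05), and Kcnj8, Abcc9 and Des stayed under the filter.

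Twist1 is required for outgrowth of the limb bud and for its feedback signalling with the ectoderm (ENSMUSG00000035799, chromosome 12, 33957671 to 33959829, plus strand). It stood at 163 and 198 TPM in knockout buds, against 129 and 151 TPM in control buds. The groups were separate, with the lower knockout value not far above the higher control. Its log2 fold change was 0.36 ± 0.14 (95% interval 0.02 to 0.71) and did not pass. Twist2, also called Dermo1 and known for its role in dermis, stood at 29.3 and 38.2 TPM in knockout buds, against 41.5 and 40.7 TPM in control buds (ENSMUSG00000007805, chromosome 1, 91801461 to 91848028, plus strand). The controls were nearly equal and both knockouts lay below them, the embryo of 40 somites furthest. The log2 fold change was -0.29 ± 0.15 (95% interval -0.65 to 0.07) and did not pass.

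**Figure D2:**
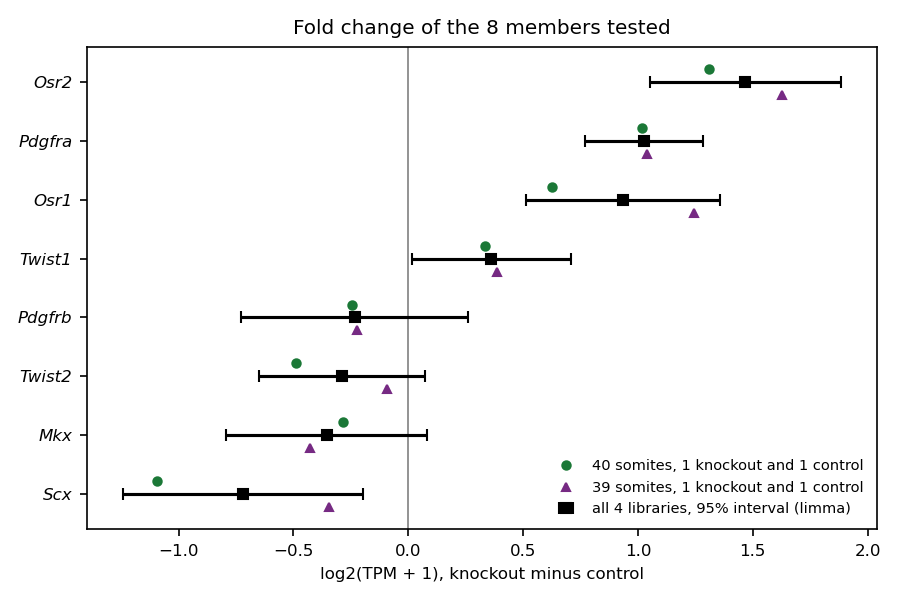
Log2 fold change of TPM + 1, knockout minus control, for the 8 genes tested; squares with bars are the limma estimate over all 4 libraries with its 95% interval, and circles and triangles the difference at 40 and at 39 somites from 1 library of each genotype. Pdgfra differs least between the stages (1.02 and 1.04), and Scx (-1.09 and -0.34) and Osr1 (0.63 and 1.24) differ the most.

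Each of the 8 genes tested had the same sign at both stages, with 1 knockout and 1 control embryo at each. The difference of Osr2 was 1.31 at 40 somites and 1.63 at 39 somites. For Scx it was -1.09 at 40 somites and -0.34 at 39 somites, and for Twist2 -0.49 and -0.09. The calls for both Osr2 and Pdgfra ended without control replicate 1 and without control replicate 2, and also with no filter on low values. Over all settings tried, the log2 fold change of Osr2 lay between 1.24 and 1.70 and that of Pdgfra between 0.98 and 1.08.

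Since only 1 gene of the PDGF receptor pair passed and the Twist pair lay on opposite sides of 0, the balance of each pair was read within each library. The ratio of Pdgfra to Pdgfrb TPM was 10.5 and 8.22 in knockout buds, against 4.32 and 3.39 in control buds. The ratio of Twist1 to Twist2 was 5.57 and 5.18 in knockout buds, against 3.11 and 3.71 in control buds. The ratio of Osr2 to Osr1 was 4.08 and 4.74 in knockout buds, against 2.57 and 3.80 in control buds. All 3 ratios were higher in both knockout libraries than in either control, and the lower knockout value and the higher control value were closest for the Osr pair. The ratio of Scx to Mkx overlapped, at 2.42 and 5.22 in knockout buds and 4.27 and 4.72 in control buds. In the Osr, PDGF receptor and Twist pairs the gene put first was the one with the higher log2 fold change. These were 1.47 against 0.93 for Osr2 and Osr1, 1.03 against -0.23 for Pdgfra and Pdgfrb, and 0.36 against -0.29 for Twist1 and Twist2. The higher ratios thus restate the values of the members. The ratios use the same libraries as the fold changes and were not tested.

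**Figure D3:**
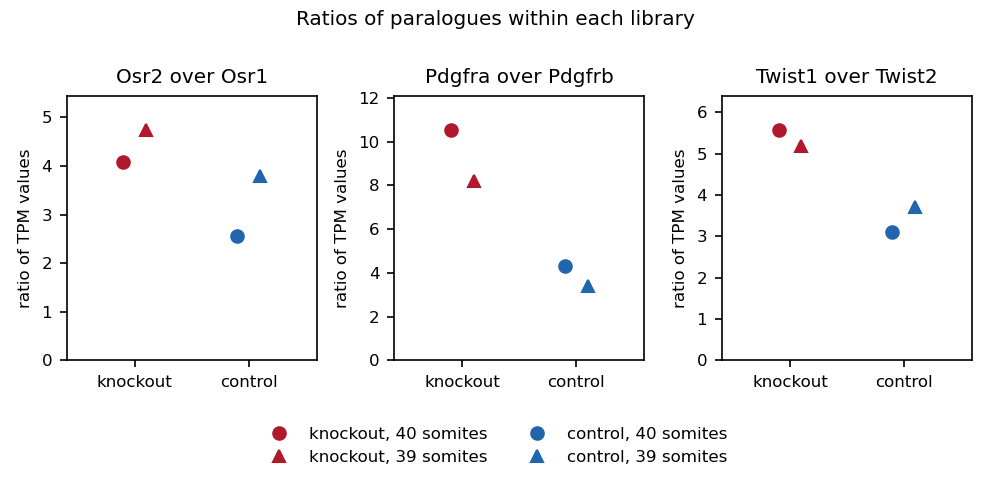
Ratio of TPM values within each library (vertical axes, from 0) for Osr2 over Osr1, Pdgfra over Pdgfrb and Twist1 over Twist2; circles are embryos of 40 somites and triangles embryos of 39 somites. Knockout libraries lie above control libraries in each panel, with the widest gap for the PDGF receptors (10.5 and 8.22, against 4.32 and 3.39).

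The order of the genes by level also differed between genotypes. In the knockouts Twist1 (mean 180 TPM) and Pdgfra (168 TPM) overlapped at the top, followed by Osr2 (84.6 TPM) and Twist2 (33.7 TPM). Scx (19.6 TPM), Osr1 (19.1 TPM) and Pdgfrb (18.2 TPM) overlapped one another, above Mkx (5.44 TPM). In the controls the order was Twist1 (mean 140 TPM), Pdgfra (81.7 TPM), Twist2 (41.1 TPM), Scx (32.2 TPM), Osr2 (29.6 TPM), Pdgfrb (21.6 TPM), Osr1 (9.56 TPM) and Mkx (7.20 TPM), and of these neighbours only Scx and Osr2 overlapped. Twist1 was at percentile 92.4 and Mkx at percentile 28.9 of the control levels of all genes tested.

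Pdgfra is the gene past the threshold for which the RefSeq promoter table (GRCm38.p6, the assembly of mm10) has an entry, and its sequence is shown because TWIST and SCX proteins bind E-boxes. The table has entries for 4 of the 9 genes. The 250 bases before the start given by RefSeq, which lies upstream of the start in GENCODE quoted above, are chr5:75152001-75152250 on the plus strand, and read 5′ to 3′ with the E-box in capitals:
Pdgfra: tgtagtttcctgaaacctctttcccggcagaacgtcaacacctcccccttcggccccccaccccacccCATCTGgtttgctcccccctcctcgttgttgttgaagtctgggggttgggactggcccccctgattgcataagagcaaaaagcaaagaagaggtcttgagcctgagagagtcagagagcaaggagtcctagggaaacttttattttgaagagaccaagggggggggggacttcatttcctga

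The letters CANNTG, which read alike on both strands, occurred 1 time in this window, as CATCTG beginning 182 bases before the RefSeq start, and in 66.2% of all 32851 windows of the table. The windows of Twist1, Twist2 and Tnmd held 0 such matches. The GLI motif GACCACCCA, searched on both strands, was in none of these 4 windows and in 0.225% of all windows. A match of letters is not evidence of binding, and its absence from this window says nothing of sites elsewhere.

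Genes around the members were read next, since the choice of members did not use them. Within 250 kb of the 9 genes, 41 genes were tested, and 0 passed by limma over all genes, beside 1.3% of all genes tested. Before adjustment, 1 was higher and 3 lower at p below 0.05 by limma, beside 6.78% and 6.89% of all genes tested. Without knockout replicate 1 and without knockout replicate 2, 1 neighbour passed, the pseudogene Rps2-ps10 near Pdgfrb, whose log2 fold change lay anywhere from -3.44 to 3.89 with a library left out. Around Osr2, Stk3, a kinase of the Hippo pathway, stood at 30.9 and 36.2 TPM in knockout buds and 29.9 and 31.6 TPM in control buds. Its log2 fold change was 0.12 ± 0.12, and that of Vps13b on the other side was 0.13 ± 0.14 (limma, Benjamini-Hochberg adjusted p = 0.765 and 0.769). Next to Pdgfra, Chic2 stood at 19.6 and 22.8 TPM in knockout buds and 21.5 and 23.6 TPM in control buds, with a log2 fold change of -0.09 ± 0.13 (adjusted p = 0.842 by limma). Only 2 genes beside Osr2 and 1 beside Pdgfra were tested. None of them passed, but with 1.3% of all genes passing, so few genes can show little.

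Around Scx 24 genes were tested, with log2 fold changes from -0.42 to 0.23. The lowest was that of Plec, a cytoskeletal linker, at -0.42 ± 0.14 (limma, Benjamini-Hochberg adjusted p = 0.280). Hdac9, the histone deacetylase gene beside Twist1, stood at 4.57 and 4.80 TPM in knockout buds and 2.91 and 2.96 TPM in control buds. Its log2 fold change of 0.53 ± 0.14 did not pass (adjusted p = 0.186 by limma). Beside Twist2, Asb1 was at -0.64 ± 0.14 and Hdac4 at -0.23 ± 0.15, and neither passed (adjusted p = 0.121 and 0.597 by limma). The smallest adjusted p beside Osr1 was 0.875, for the pseudogene Gm48774; beside Mkx it was 0.813, for Rab18; beside Pdgfrb 0.254, for Tcof1; and beside Tnmd 0.682, for Tspan6, all by limma.

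**Figure D4:**
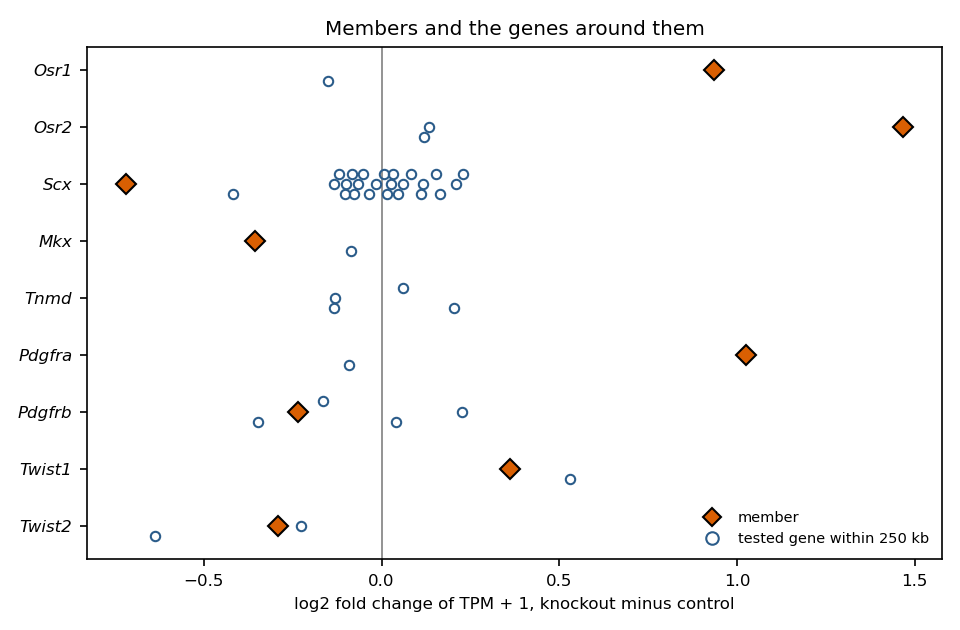
Log2 fold change of TPM + 1, knockout minus control (horizontal axis), of each gene of the set (diamond) and of the tested genes whose bodies lie within 250 kb of it (open circles). The 24 neighbours of Scx range from -0.42 to 0.23, and the neighbours of Osr2 and Pdgfra lie between -0.09 and 0.13; Tnmd was not tested and has no diamond.

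Related genes were then read in 6 lists. These lists too were chosen with earlier results of these data known, so their counts and medians are given as a description. Together these held 104 genes, of which 91 were tested, and 5 rose and 0 fell by limma over all genes, beside 0.812% and 0.492% of all genes (before adjustment, 19 were higher and 11 lower at p below 0.05, beside 6.78% and 6.89%). With somite stage as a block 10 were higher and 5 lower, without knockout replicate 1 these counts were 12 and 4, without knockout replicate 2 they were 8 and 2, and with protein-coding nuclear genes alone also 8 and 2; all 5 genes still passed in each of these 4 fits. All 5 were in the lists of connective tissue and of tendon genes.

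Among 25 regulators and markers of connective tissue and dermal fibroblasts, 21 were tested, 2 rose and 0 fell, and the median log2 fold change was 0.25, against 0.01 over all genes. Before adjustment, 8 were higher and 2 lower at p below 0.05, beside 6.78% and 6.89% of all genes tested. Hic1, a transcriptional repressor that marks quiescent mesenchymal progenitors in mouse, stood at 6.49 and 8.82 TPM in knockout buds, against 1.82 and 1.06 TPM in control buds. Its log2 fold change was 1.83 ± 0.22 (limma, Benjamini-Hochberg adjusted p = 0.0262). Lum, the collagen-binding proteoglycan lumican, stood at 17.2 and 18.2 TPM in knockout buds, against 6.91 and 7.23 TPM in control buds (1.21 ± 0.13; adjusted p = 0.0167 by limma). With pseudocounts of 0.1 and 5 the log2 fold change was 2.36 and 0.97 for Hic1 and 1.31 and 0.91 for Lum. In both genes every knockout value was above every control value. That held for 9 of the 21 tested genes of this list, beside 22.7% of all genes tested. In another 3 every knockout value was below every control value, beside 21.2%.

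Meox2, a homeobox gene of limb muscle precursors and mesenchyme, stood at 113 and 126 TPM in knockout buds and 74.5 and 64.0 TPM in control buds (limma, Benjamini-Hochberg adjusted p = 0.0519). Ebf2 stood at 1.81 and 1.65 TPM in knockout buds and 0.217 and 0.500 TPM in control buds (adjusted p = 0.0797 by limma). En1, which is expressed in ventral ectoderm as well as in dermal fibroblast lineages, stood at 3.54 and 2.46 TPM in knockout buds and 9.65 and 7.22 TPM in control buds (adjusted p = 0.0589 by limma). None of these 3 passed in the main fit, with all libraries, a filter at 1 TPM and no block. With somite stage as a block Meox2 and En1 passed (limma, Benjamini-Hochberg adjusted p = 0.03525 and 0.01751). All 3 passed with a robust variance and with protein-coding nuclear genes alone. Ebf2 also passed with no trend in the variance, and Meox2 with a filter at 5 TPM. Without knockout replicate 1 the log2 fold changes of Meox2, Ebf2 and En1 were 0.86, 0.97 and -1.44. Without knockout replicate 2 they were 0.70, 1.06 and -1.04. The 10 surface ectoderm markers, which lay below 0 in all 10 cases with 0 passing by limma (before adjustment, 0 higher and 4 lower at p below 0.05) and 3 lower with the block, summed to 476 and 299 TPM in knockout buds and 605 and 396 TPM in control buds, and their part in the values of En1 was not tested.

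Of 26 tendon differentiation and matrix genes, 20 were tested, 3 rose and 0 fell, with a median of 0.27. Before adjustment, 7 were higher and 4 lower at p below 0.05, beside 6.78% and 6.89% of all genes tested. Those that rose were the matrix genes Col1a1, Col12a1 and Postn, which are not particular to tendon.

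Col12a1, a fibril-associated collagen, stood at 10.6 and 14.0 TPM in knockout buds, against 3.85 and 3.76 TPM in control buds (1.45 ± 0.17; limma, Benjamini-Hochberg adjusted p = 0.0228). Postn, the matricellular protein periostin, stood at 5.37 and 4.95 TPM in knockout buds, against 1.47 and 0.723 TPM in control buds (1.58 ± 0.21; adjusted p = 0.0346 by limma). The fold of Col1a1, the main fibrillar collagen chain, was 2.23 ± 0.16 on the same scale (adjusted p = 0.00694 by limma). With pseudocounts of 0.1 and 5 the log2 fold change was 1.65 and 0.96 for Col12a1 and 2.21 and 0.74 for Postn. Col1a1, Col12a1 and Postn were all higher in both knockout libraries than in either control. Of the 20 tested genes of this list 9 were higher in this way, beside 22.7% of all genes tested. Another 4 were lower in both knockout libraries than in either control, beside 21.2% of all genes tested.

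Eya2, a transcriptional coactivator, stood at 12.4 and 19.3 TPM in knockout buds and 6.52 and 7.22 TPM in control buds, and Tgfb2, a growth factor that induces Scx, at 4.19 and 4.07 TPM in knockout buds and 6.75 and 7.90 TPM in control buds. Neither passed in the main fit (limma, Benjamini-Hochberg adjusted p = 0.0972 and 0.109). Eya2 did with somite stage as a block (adjusted p = 0.03348 by limma). It also passed with a robust variance and with protein-coding nuclear genes alone (adjusted p = 0.0460 and 0.0499 by limma). Col1a2 stood at 158 and 173 TPM in knockout buds and 93.9 and 122 TPM in control buds (adjusted p = 0.145 by limma, and 0.03355 with the block). Without control replicate 1 the calls for Lum and Col12a1 ended, and 3 of the 5 genes still passed. Without control replicate 2 only Col1a1 did, and with no filter on low values none of the 5. The call for Hic1 also ended under quantile normalization, and that for Postn under quantile normalization, median-ratio scaling and a pseudocount of 0.1. With a filter at 5 TPM Postn was not tested.

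**Figure D5:**
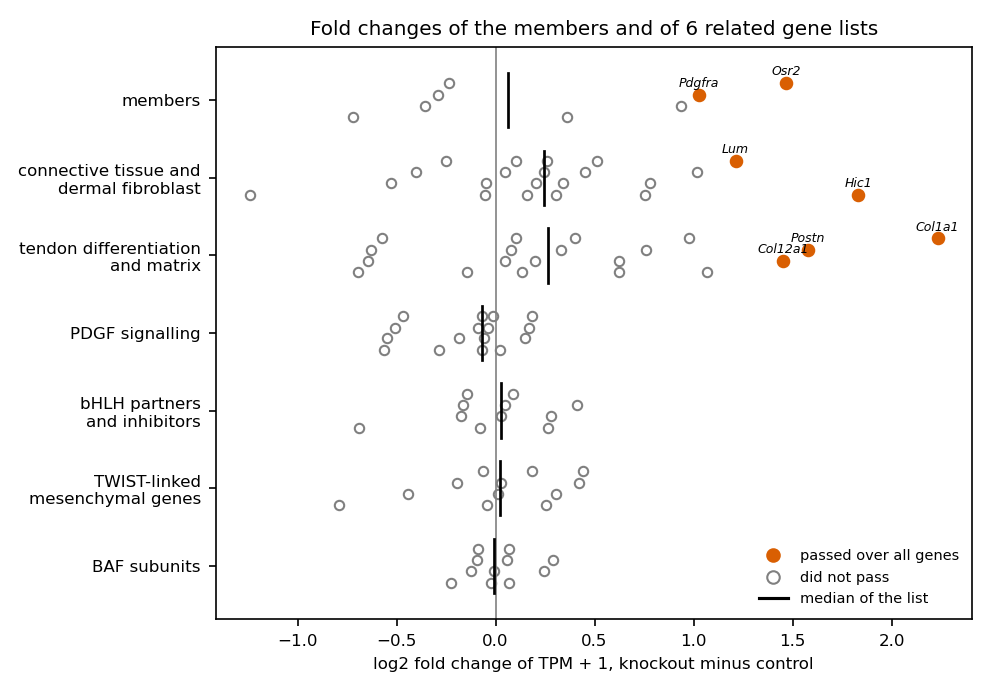
Log2 fold change of TPM + 1, knockout minus control (horizontal axis), for the members and for the tested genes of 6 related lists; filled points passed limma over all genes, open points did not, and black bars are list medians. The 5 filled points of the related lists, Lum, Hic1, Col12a1, Postn and Col1a1, all lie between 1.21 and 2.23.

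The partners of the PDGF receptors showed no such calls. Of 16 genes of PDGF signalling, all tested, 0 rose and 0 fell by limma, and the median was -0.07. Before adjustment 0 were higher and 3 lower at p below 0.05, beside 6.78% and 6.89% of all genes tested. The ligand genes went different ways. Those with the smallest p, Pdgfd and Pdgfa, were lower in both knockout libraries than in either control, Pdgfc was higher in both, and Pdgfb overlapped. Pdgfc, which encodes the PDGF-CC ligand of PDGFRA, stood at 57.6 and 65.9 TPM in knockout buds and 55.5 and 52.8 TPM in control buds. Its log2 fold change was 0.18 ± 0.12 (limma, Benjamini-Hochberg adjusted p = 0.577). Pdgfa, which encodes a ligand of PDGFRA and is made by limb ectoderm among other tissues, stood at 33.3 and 35.9 TPM in knockout buds. In control buds it stood at 57.5 and 42.8 TPM (-0.51 ± 0.16, limma, Benjamini-Hochberg adjusted p = 0.243). Pdgfd, a ligand of PDGFRB, stood at 1.08 and 1.21 TPM in knockout buds and 2.22 and 2.11 TPM in control buds (adjusted p = 0.201 by limma). Nrp1, a co-receptor, stood at 12.4 and 13.9 TPM in knockout buds and 15.4 and 22.4 TPM in control buds (adjusted p = 0.365 by limma).

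Of 14 bHLH partners and inhibitors, 11 were tested, 0 rose and 0 fell by limma, and the median was 0.03. Before adjustment 2 were higher and 1 lower at p below 0.05, beside 6.78% and 6.89% of all genes tested. Tcf12, which encodes an E-protein partner of TWIST1, stood at 191 and 228 TPM in knockout buds and 155 and 159 TPM in control buds (0.41 ± 0.12; limma, Benjamini-Hochberg adjusted p = 0.225). Id2, which encodes an inhibitor that sequesters E-proteins, stood at 225 and 251 TPM in knockout buds and 199 and 192 TPM in control buds (adjusted p = 0.350 by limma). Atoh8 was at -0.69 ± 0.17 on the log2 scale (adjusted p = 0.150 by limma, and 0.04735 with somite stage as a block).

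Of 12 mesenchymal transcription factor and adhesion genes linked to TWIST, 0 rose and 0 fell by limma, and the median was 0.02. Before adjustment 2 were higher and 1 lower at p below 0.05, beside 6.78% and 6.89% of all genes tested. The paralogues Snai1 and Snai2, zinc finger repressors of epithelial genes, lay on opposite sides. Snai2 stood at 30.1 and 29.7 TPM in knockout buds and 19.8 and 23.9 TPM in control buds, and Snai1 at 12.0 and 15.5 TPM in knockout buds and 18.8 and 31.4 TPM in control buds (limma, Benjamini-Hochberg adjusted p = 0.219 and 0.247), and with somite stage as a block Snai1 passed (adjusted p = 0.03923 by limma). The intermediate filament gene Vim was at 0.42 ± 0.15 on the log2 scale (adjusted p = 0.297 by limma).

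Of 11 other BAF subunit genes, 0 passed by limma and 0 had p below 0.05 before adjustment, with a median of -0.01 and log2 fold changes from -0.23 to 0.29. The extremes were Smarca2, which encodes the BRM ATPase, and Smarcd3, which encodes BAF60C (limma, Benjamini-Hochberg adjusted p = 0.486 and 0.438). Smarcd2 was at 0.24 ± 0.11 (adjusted p = 0.410 by limma).

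Markers of other cell types gave the following values. Endothelial markers, 9 of 9 tested, summed to 88.0 and 123 TPM in knockout buds and 74.7 and 129 TPM in control buds, and cartilage progenitor markers, 6 of 9 tested, to 152 and 176 TPM in knockout buds and 153 and 166 TPM in control buds. Schwann lineage markers, 2 of 6 tested, summed to 10.0 and 7.84 TPM in knockout buds and 12.2 and 10.1 TPM in control buds, with Foxd3 listed at 0 in both controls. Myoblast markers, 8 of 9 tested and all 8 above 0, summed to 46.1 and 48.2 TPM in knockout buds and 39.8 and 30.1 TPM in control buds. By limma 0 of these 8 passed, and before adjustment 1 was higher and 0 lower at p below 0.05. Macrophage markers, 4 of 7 tested, summed to 8.03 and 8.89 TPM in knockout buds and 9.31 and 14.7 TPM in control buds. Of the endothelial, cartilage, Schwann and macrophage lists 0 genes passed by limma, and before adjustment 0 were higher and 1 lower at p below 0.05. Of the 8 limb mesenchyme markers 0 rose and 1, Msx1, fell by limma. Before adjustment, 1 was higher and 2 lower at p below 0.05, and with somite stage as a block 1 was higher and 2 were lower. Msx1 stood at 27.0 and 27.8 TPM in knockout buds, against 81.5 and 109 TPM in control buds, a log2 fold change of -1.75 ± 0.16.

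The genes whose values over the 4 libraries lay closest to those of the genes past the threshold were found by Euclidean distance of centred log2(TPM + 1) values among protein-coding genes. For Osr2 they were Lin28b, an RNA-binding regulator of let-7 maturation, at a distance of 0.0693, and the glypican gene Gpc5, at 0.111. Lin28b stood at 43.5 and 58.1 TPM in knockout buds, against 17.5 and 19.1 TPM in control buds. For Pdgfra they were Pnmal2, at a distance of 0.0595, and Megf11, at 0.0639. Closeness over 4 libraries is a description of these values only.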

How the data were processed

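RNA of 4 mouse forelimb bud pairs, 2 knockout and 2 control, was read from 1 deposited table. The authors deposited TPM values, 1000000 per column; Salmon 1.9.0 and mm10 are named, without role or settings, per the submitters' processing notes. How transcripts were chosen and summed to genes is not stated in the labels or the file. Read depth is unknown, so no counting error is given. Of 35727 identifiers 99.1% matched a symbol in GENCODE (mm10), and 38 repeated symbols were summed, leaving 35689 genes. Columns were matched to sample titles, 1 of which lacks a letter of the column name.

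Genes with at least 1 TPM in at least 2 libraries (12809) were compared on the log2(TPM + 1) scale by limma 3.58.1 (R 4.3.3; lmFit, eBayes with a mean-variance trend, no covariates, Benjamini-Hochberg at 0.05). The procedure was also run on simulated data with independent noise in each gene and library. Such data hold no effect of stage or sex, so that run says nothing of how the procedure handles these. Fold changes are knockout minus control on that scale and understate changes of low genes. With 2 libraries against 2, the smallest two-sided p of an exact permutation test is 0.333, so none is given. The members and lists were chosen with earlier results of these data known. Named genes are the members and every listed gene past the threshold, with the 3 next smallest p in each list. Also named are, for each member, the neighbour with the smallest p and, for each member past the threshold, the 2 closest genes. Bop1, Vps13b, Hdac4, Msx1, Pdgfb and Pdgfc were named after their values were seen. Of the related lists 1 gene is not reported here. No sequence of Mkx or Pdgfrb is shown, and proteins were not used here.

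Alternatives were pseudocounts of 0.1 and 5, no filter and a filter at 5 TPM, median-ratio and quantile scaling, protein-coding nuclear genes alone, a block for somite stage, a fit with no trend in the variance, robust estimation of the variance, each library left out and a threshold of 0.1.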

Additional observations from a re-analysis of the deposited data

Results flagged for a closer look

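Tnmd moved in opposite directions at the 2 stages. As log2(TPM + 1), knockout minus control, it was 0.55 at 40 somites and -0.25 at 39 somites, with 1 library of each genotype at each stage. The difference between stages was not tested, stage and sex cannot be told apart in these libraries, and every value was below 1 TPM.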

How the results depend on the processing

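Over all genes, 167 passed. The count was 533 with somite stage as a replicate block, 275 with a robust variance, 291 with protein-coding nuclear genes alone, 316 at a threshold of 0.1, and 50 to 646 with a library left out. Without the filter on low TPM, limma passed 0 genes (2338 had p below 0.05 before adjustment), and so 0 members were higher (3 before adjustment) and Smarcc1, at -1.44, did not pass. With a library left out, 0 to 3 members were higher and 0 to 1 lower: 0 were higher without control replicate 1 or 2, and the 1 lower, without knockout replicate 2, was Scx. The causes were not tested, other than that leaving out a library leaves fewer samples. None of the 8 members tested changed sign under any of the 14 alternatives with a fold; Tnmd, which was not tested, was at 0.15 on the log2 scale and at -0.15 without knockout replicate 1. Of the 41 neighbours tested, 25 changed sign under at least 1 alternative; of the 9 with the smallest p for their member these were Gm48774 (-0.55 to 0.24) and Chic2 (-0.20 to 0.015). The block pairs libraries by stage in the labels; same-stage deviations from the genotype means correlated across genes (Pearson 0.25, Spearman 0.364; genes are not independent replicates), and the block gave the same 2 members past the threshold. Of the other genes named with an adjusted p it added calls for Meox2, En1, Eya2, Col1a2, Atoh8 and Snai1 and ended none. Read depth, and with it the precision of low genes such as Tnmd, is unknown.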

Other observations

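The pseudogene Rps2-ps10, within 250 kb of Pdgfrb, had 2436 and 19.1 TPM in knockout buds and 2394 and 13.9 TPM in control buds, with the high values in both embryos of 40 somites and the low ones in both of 39 somites. Stage and sex cannot be told apart in these libraries, and Rps2-ps10 was named after its values were seen.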
